A study of Solanum virginianum with 36 samples.

Results

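In eggplant leaves fed on by western flower thrips, 101 gene IDs had a mean level at 0 h that was set apart below those of all fed times in both of the lines studied, 1 resistant to thrips and 1 susceptible. They were chosen on counts scaled to library size (CPM) by edgeR's TMM method, among the 14952 IDs with a mean of at least 2 CPM in each line. For each line the 6 time means of log2(CPM + 1) were sorted, and the largest step between neighbours had to set 0 h, below, apart from 4, 8, 12, 24 and 48 h, above. The step was found in the resistant line for 707 IDs (4.73%) and in the susceptible line for 551 (3.69%). A higher mean at every fed time in both lines, whatever the size of the step, was found for 962 IDs. The 101 that met the rule in both lines are 14.3% of the resistant list and 18.3% of the susceptible list. The table holds 85443 IDs, of which 33340 had a count. The members' differences from 0 h chose them and are given as a description.

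Thrips pierce single cells of the leaf surface and empty them, so that feeding is at once a wound and an attack by an insect. Leaves of the nightshade family are known for a wound response driven by jasmonate, with proteinase inhibitors, oxidases and phenolics such as chlorogenic acid, an ester of quinic acid, among its products. Neither file gives a name or function for an ID, so the members are described by level, time and line, without roles, and it cannot be said here which of them belong to that response.

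The 12 groups were the resistant and the susceptible line at 0, 4, 8, 12, 24 and 48 h of thrips feeding, with 3 libraries each that the labels call biological replicates. All plants were grown in a greenhouse with 16 h of light and leaves were taken 1 week after transplanting. The organism label reads Solanum virginianum, while the title speaks of eggplant. How many plants went into a library, and whether each line stands for 1 accession, is not given in the sources used here. No unfed leaves of later times are among the groups, so feeding and elapsed time cannot be told apart. If feeding ran without a break from 0 h, the 24 and 48 h groups share the hour of day of 0 h, and the others do not. The rows with an ID summed to 30629392 to 41243395 estimated counts per library in the resistant line and 34360637 to 42391553 in the susceptible line.

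The members as a group stood higher in every fed library than in any library at 0 h. They were chosen on these same libraries for a low mean at 0 h, so this is a description. The median member was 0.46 to 0.84 log2 units above its own line's 0 h mean in the 15 fed resistant libraries, and 0.42 to 0.76 above it in the 15 fed susceptible ones. In each of the 30 fed libraries, 94 to 101 of the 101 members were above that mean. The median over all 14952 IDs stayed between -0.05 and 0.04 in the 36 libraries. At 0 h the 3 resistant libraries were alike, with medians of 0.0045, 0.0035 and 0.010. The 3 susceptible ones were spread more widely, at 0.0097, 0.096 and -0.093, with replicate 3 the low one. As these are whole leaves, more RNA per cell and more cells of a type that holds the RNA cannot be told apart.

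**Figure D1:**
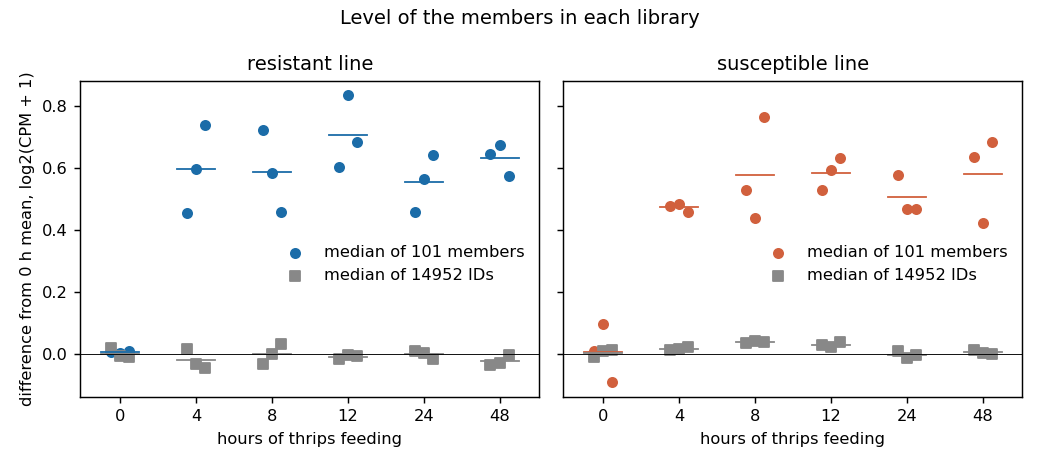
Each point is 1 library, placed by hours of thrips feeding (x axis) and by the median difference from the 0 h mean of its line, in log2(CPM + 1) (y axis), for the 101 members and for all 14952 IDs with at least 2 CPM in each line, with short bars at the mean of the 3 libraries. The members, chosen on these libraries for a low mean at 0 h, sit at 0.42 to 0.84 in every fed library, and all IDs stay between -0.05 and 0.04.

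The size of the difference was modest for most members. Its median was of like size at all 5 times, which the rule favours because it limits the steps among the fed means. In the resistant line the median member was 0.62, 0.57, 0.72, 0.51 and 0.70 log2 units above 0 h at 4, 8, 12, 24 and 48 h. The same medians in the susceptible line were 0.46, 0.62, 0.56, 0.47 and 0.58. Averaged over the fed times, the median was 0.65 (1.57-fold) in the resistant line, with members from 0.17 to 3.10, and 0.56 (1.47-fold) in the susceptible line, with members from 0.16 to 2.64. Both highest values belong to Sme2.5_24471.1_g00001, which was at or near 0 CPM at 0 h, so their size depends on the 1 added before log2. The step that the rule used had a median of 0.42 in the resistant and 0.36 in the susceptible line. The median SD among the 3 libraries at 0 h was 0.18 and 0.21. The step was larger than the member's own SD at 0 h for 88 members in the resistant and 79 in the susceptible line, and smaller for the others. On the deposited FPKM without rescaling, 65 of the 75 members with an FPKM had every fed mean above 0 h in both lines, the exceptions being at 24 and 48 h, where the median difference of all IDs was itself -0.17 and -0.22 in the resistant line and -0.14 at 48 h in the susceptible line. On FPKM rescaled by TMM it was 75 of 75.

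Library by library, the separation from 0 h was complete for some members and not for others. All 15 fed libraries were above all 3 libraries at 0 h for 46 members in the resistant line (2.07% of the 14952 IDs), for 33 in the susceptible line (1.11%) and for 27 in both (0.247%). For 49 members it held in neither line, as was so for most of the 14952 IDs. In edgeR's quasi-likelihood fit over 23719 IDs, all 101 members passed the filter on low counts. At an adjusted p under 0.05, 60 members were called higher than 0 h after 4 h in the resistant line (6.56% of all tested), 52 after 8 h (5.12%), 71 after 12 h (9.77%), 48 after 24 h (4.3%) and 64 after 48 h (11.5%). For the susceptible line the counts were 26 (3.53%), 51 (6.26%), 49 (4.72%), 33 (3.39%) and 40 (4.2%). Since the rule used these differences, nothing is read from the counts.

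Of the 101 members, 31 were called at all 5 times in the resistant line (0.497% of all tested) and 12 in the susceptible line (0.101%). Calls at all 10 line and time comparisons were made for 9 members (0.0379%), and these were the only 9 IDs of the series with 10 calls. At the other end, 8 members had no call at any time in either line, so that they met the rule on means alone. Of all tested IDs, 20.7% were called higher than 0 h at any fed time in the resistant line and 13.6% in the susceptible line. Summed over the 10 comparisons, 494 of 1010 were called (5.94% over all IDs). Fits of only the groups compared called 266, and between 1.62% and 9.48% of all IDs tested were called higher in them.

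Members were ranked by the smaller of their steps in the 2 lines. The first was Sme2.5_24471.1_g00001, which had no count in the 3 resistant libraries at 0 h. Its resistant values were 11.3, 0 and 17.2 CPM after 4 h, 11.9, 11.9 and 9.40 after 8 h, 10.8, 8.45 and 0 after 12 h, 6.41, 12.5 and 8.72 after 24 h, and 11.2, 13.2 and 12.3 after 48 h. Its susceptible values were 0, 1.68 and 0 CPM at 0 h, 0, 6.42 and 11.3 after 4 h, 14.7, 6.28 and 15.9 after 8 h, 10.2, 7.25 and 11.0 after 12 h, 7.04, 1.58 and 9.29 after 24 h, and 14.8, 11.0 and 13.6 after 48 h. It was thus present in most fed libraries and nearly absent before, but it was also listed at 0 in 1 resistant library after 4 h, 1 after 12 h and 1 susceptible library after 4 h, where its replicates were above 5 CPM. No fold against 0 h is given.

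Sme2.5_02826.1_g00004 was second and was never at 0. Its resistant libraries had 9.52, 10.7 and 13.5 CPM at 0 h, 50.3, 96.8 and 277 after 4 h, 67.8, 35.6 and 44.3 after 8 h, 78.1, 127 and 96.9 after 12 h, 25.8, 34.4 and 57.9 after 24 h, and 65.5, 121 and 81.8 after 48 h. Its susceptible libraries had 3.30, 5.78 and 5.86 CPM at 0 h, 12.7, 13.8 and 12.0 after 4 h, 38.7, 21.9 and 48.1 after 8 h, 24.9, 32.2 and 24.6 after 12 h, 14.8, 20.4 and 19.2 after 24 h, and 18.9, 15.9 and 27.8 after 48 h. Every fed library was above every 0 h library of its line. The 4 h value of 277 in the resistant line stood far above the other 2 libraries of its group. This ID met the rule without each of the 36 libraries in turn, while Sme2.5_24471.1_g00001 did so without 35 of them.

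Sme2.5_04775.1_g00004 was among the 9 members called at all 10 comparisons and was highest after 12 h in both lines; it was chosen for display after its values were seen. Its means in the resistant line were 30.9 ± 6.47 CPM at 0 h (SD, n = 3), 101 ± 19.3 after 4 h, 74.0 ± 16.8 after 8 h, 246 ± 23.1 after 12 h, 109 ± 20.7 after 24 h and 99.7 ± 25.2 after 48 h. Those in the susceptible line were 31.6 ± 12.0, 76.4 ± 8.34, 147 ± 61.4, 171 ± 27.2, 60.2 ± 20.4 and 78.1 ± 12.9. The lowest fed libraries, at 63.1 and 45.9 CPM, were above the highest at 0 h, at 36.8 and 40.7. Sme2.5_04775.1_g00004 met the rule without 27 of the 36 libraries, each left out in turn. Its step in the resistant line was 1.23, beside a next largest step of 1.18.

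**Figure D2:**
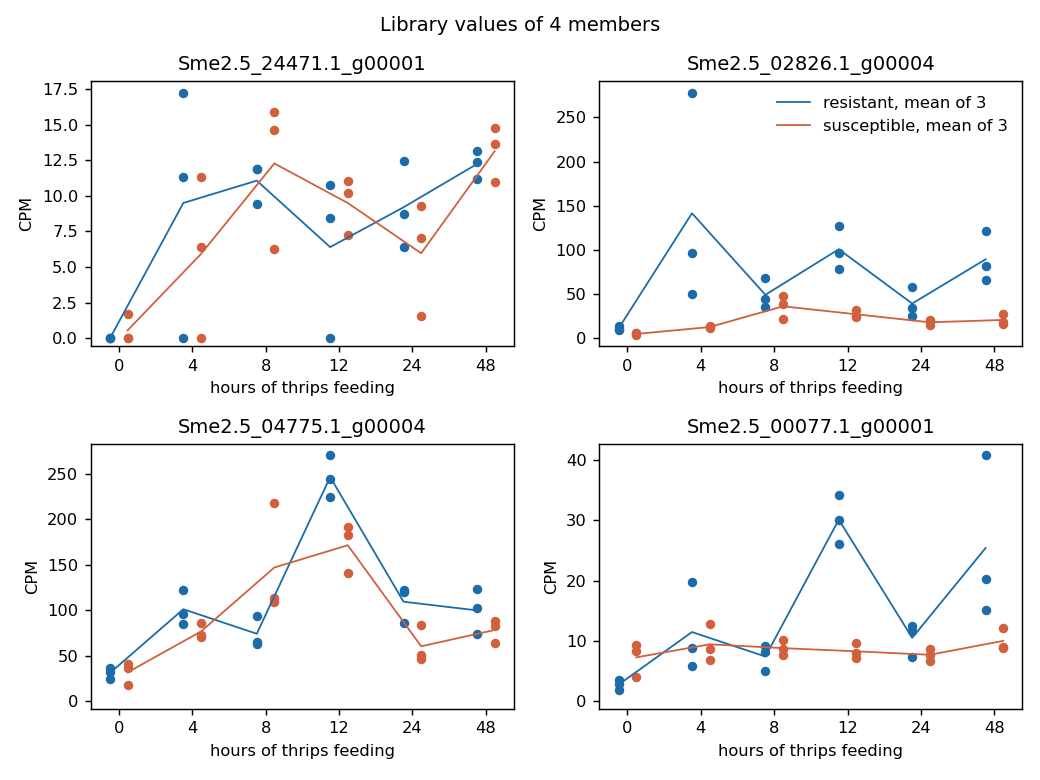
CPM (y axis) of 4 members by hours of thrips feeding (x axis), with 1 point per library and a line through the means of 3. Sme2.5_24471.1_g00001 is at or near 0 before feeding, Sme2.5_02826.1_g00004 and Sme2.5_04775.1_g00004 are higher in every fed library of both lines, and Sme2.5_00077.1_g00001 starts at 2.73 ± 0.807 CPM (SD, n = 3) in resistant and 7.25 ± 2.86 in susceptible leaves and reaches 30.1 ± 4.10 at 12 h in the resistant line.

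At the edge of the rule the steps were small. Just inside, Sme2.5_01978.1_g00001 had a step of 0.105 below 4 to 48 h in the resistant line, beside a next largest step of 0.103. Sme2.5_00294.1_g00006 had 0.108 beside 0.105 in the susceptible line. Just outside, Sme2.5_15029.1_g00001 had 0.250 beside 0.252 and Sme2.5_05062.1_g00003 had 0.115 beside 0.118, both in the resistant line. The margins on both sides of the edge were far smaller than the SD between libraries.

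The most abundant members per length, by deposited FPKM (a fragment count scaled to gene length and library size, held for 75 members), were Sme2.5_00836.1_g00004 and Sme2.5_00417.1_g00023, with mean FPKM of 764 and 220. At 0 h the first had 841 ± 136 CPM (SD, n = 3) over resistant libraries, and 1456 ± 109 to 1933 ± 122 at the fed times. In the susceptible line it had 718 ± 126 CPM at 0 h and 963 ± 154 to 1328 ± 47.8 afterwards, with the lowest fed library, at 773 CPM, below the highest at 0 h, at 797. The second went from 76.0 ± 6.90 CPM to between 89.8 ± 1.66 and 112 ± 8.92 in the resistant line, and from 95.3 ± 2.63 to between 126 ± 16.6 and 136 ± 12.6 in the susceptible line, a small change in which no fed library overlapped with 0 h. The median FPKM of the 75 members was 13.6, beside 11.3 for 10970 IDs with at least 2 CPM in each line, and their median length implied by the ratio of counts to FPKM was 2.10 kb beside 2.22 kb.

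By time means, members were most often highest at 12 h in the resistant line and after 48 h in the susceptible line. The rule used these means and limits the steps among them. The counts are therefore a description and are not read against the shares. In the resistant line 41 members were highest after 12 h, 22 after 48 h, 17 after 4 h, 14 after 8 h and 7 after 24 h. Of the members in the susceptible line, 31 were highest after 48 h, 25 after 12 h, 23 after 8 h, 12 after 4 h and 10 after 24 h. Of all 14952 IDs, 20.1% were highest among the fed times after 12 h in the resistant and 14.6% in the susceptible line, and 23.2% and 20.0% after 48 h. The same shares were 16.7% and 22.2% after 4 h, 25.7% and 22.6% after 8 h, and 14.4% and 20.6% after 24 h. The same time was highest in both lines for 39 members (30.6% of all IDs), with 17 after 12 h (3.91%) and 13 after 48 h (9.28%).

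The size of the difference from 0 h was compared between the lines for each member. The rule required a step in both lines, so some likeness was built in. The difference from 0 h was larger in the resistant line for 62 members and in the susceptible line for 39. The median of resistant minus susceptible was 0.08 log2 units, a signed value in which opposite differences cancel. The means differed by more than 1 log2 unit for 2 members, both larger in the resistant line and named here because they stood out. That cut is wider than the median difference from 0 h itself, 0.65 in the resistant and 0.56 in the susceptible line. Sme2.5_00506.1_g00009 was 2.25 above 0 h in the resistant and 0.82 in the susceptible line. Its resistant values were on and off within groups, with 0.644, 23.7 and 28.7 CPM at 4 h and 25.4, 31.8 and 0 at 48 h, while its susceptible values were 5.01 to 12.7 CPM at 0 h and 7.08 to 19.2 at the fed times. This ID met the rule without 26 of the 36 libraries, each left out in turn.

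Sme2.5_00077.1_g00001 was the other, at 2.04 above 0 h in the resistant and 0.30 in the susceptible line. Its resistant libraries had 1.87, 3.47 and 2.84 CPM at 0 h, 5.80, 8.82 and 19.7 after 4 h, 8.16, 9.09 and 4.91 after 8 h, 26.0, 34.2 and 30.1 after 12 h, 7.31, 11.6 and 12.5 after 24 h, and 20.3, 40.8 and 15.1 after 48 h. The susceptible libraries had 8.39, 9.36 and 3.99 CPM at 0 h, 6.85, 8.58 and 12.8 after 4 h, 8.69, 7.57 and 10.1 after 8 h, 7.10, 7.95 and 9.70 after 12 h, 8.61, 6.71 and 7.72 after 24 h, and 12.1, 8.89 and 8.97 after 48 h. All fed resistant libraries lay above 0 h, and the susceptible libraries of fed and unfed leaves overlapped. It was the only member whose change differed between the lines in edgeR's fit (2.17 log2 units, SE 0.44, adjusted p = 0.019), where 0.169% of all tested IDs were called higher in that direction and 0.148% lower. At an unadjusted p under 0.05 there were 9 members higher and 1 lower, beside 9.96% of all IDs in either direction. The rule used both changes, so this is a description. The call was lost without replicate 1 (adjusted p = 0.12) or 3 (0.065) of the resistant line at 0 h, or without replicate 1 (0.059) or 2 (0.087) of the susceptible line at 0 h. Sme2.5_00077.1_g00001 met the rule without 21 of the 36 libraries.

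**Figure D3:**
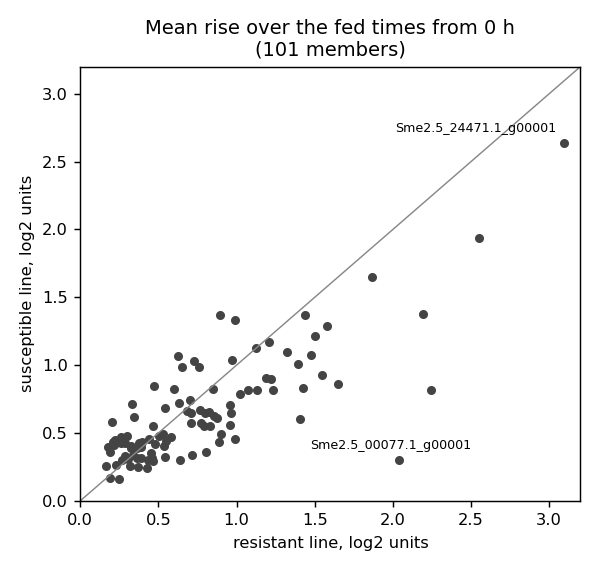
Each point is 1 of the 101 members, placed by its mean difference from 0 h over the 5 fed times in the resistant line (x axis) and in the susceptible line (y axis), both in log2(CPM + 1) units, with the line of equal size. The points run from 0.17 to 3.10 and from 0.16 to 2.64, with both upper ends set by Sme2.5_24471.1_g00001, which was at or near 0 CPM at 0 h. Sme2.5_00077.1_g00001 lies far below the line of equal size, at 2.04 and 0.30.

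The rule set no condition on the level of the members in one line against the other beyond the minimum of 2 CPM. Yet the rule used the 0 h means and the changes from 0 h in both lines. The line differences at 0 h and over the fed times both share values with these. Their counts and p-values, here and below, are therefore a description. Over the fed times, 55 members were higher in the resistant line (31.4% of all tested, 33.9% of those with at least 2 CPM in each line) and 17 were lower (35.9% and 30.8%), by edgeR's quasi-likelihood test at an adjusted p under 0.05. The median difference was 0.22 log2 units (1.17-fold) higher in the resistant line, beside 0.02 for IDs with at least 2 CPM. At 0 h, 20 members were higher (15.2% of all tested) and 15 lower (19.4%, or 13.9% of those with at least 2 CPM) in the resistant line, with a median of 0.10 beside 0.03. The fit of the 0 h libraries alone called 20 members in place of 35, beside 27.9% of the IDs tested in it. Of the members called, 20 had the higher level in the resistant line both before and during feeding (14.1% of all tested), and 12 had the lower level there at both (18.2%). Sme2.5_00077.1_g00001 was the only one called in opposite directions, lower at 0 h (-1.44 log2 units, adjusted p = 0.0058) and higher over the fed times (0.73, adjusted p = 0.00059), a pattern called for 0.042% of all tested IDs, with 0.046% in the reverse.

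No overlap between the 15 fed libraries of each line was seen for 10 members, 7 of them higher in the resistant line (3.17% of IDs with at least 2 CPM) and 3 in the susceptible line (3.46%). Sme2.5_00367.1_g00004 had a lowest, median and highest fed value of 19.2, 27.6 and 42.4 CPM in the resistant line and 8.67, 12.9 and 16.1 in the susceptible line. At 0 h it had 17.9, 17.4 and 15.5 CPM in the resistant and 6.75, 4.68 and 7.06 in the susceptible line. The difference was 1.05 log2 units over the fed times (SE 0.10, adjusted p = 4.9e-10) and 1.42 at 0 h (SE 0.23, adjusted p = 1.6e-05). The median fed susceptible library, at 12.9 CPM, was thus below all 3 unfed resistant libraries.

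Sme2.5_00756.1_g00006 had 112, 176 and 242 CPM as the lowest, median and highest fed resistant values and 75.7, 96.4 and 112 as the susceptible ones, which only just did not overlap (0.90 log2 units, SE 0.10, adjusted p = 4.3e-09). Among the members lower in the resistant line, Sme2.5_07055.1_g00008 had 3.42, 7.60 and 13.9 CPM in the fed resistant libraries and 34.8, 44.6 and 61.0 in the fed susceptible ones. Its difference was -2.51 log2 units (SE 0.18, adjusted p = 2.6e-12) over the fed times and -2.92 (SE 0.42, adjusted p = 3.7e-06) at 0 h, so that the susceptible level was the higher one both before and during feeding.

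Sme2.5_03730.1_g00006 had 0.945, 2.73 and 5.11 CPM as the lowest, median and highest fed resistant values and 8.98, 11.4 and 16.9 as the susceptible ones. It differed by -1.98 log2 units (SE 0.19, adjusted p = 4.8e-10) over the fed times and -2.75 (SE 0.44, adjusted p = 1.5e-05) at 0 h. The third member without overlap and higher in the susceptible line was Sme2.5_01978.1_g00001. Differences between lines in the match of reads to the reference IDs were not tested. At 0 h, Sme2.5_06471.1_g00001 had 42.3, 28.3 and 19.3 CPM in the resistant and 12.8, 7.33 and 16.6 in the susceptible line (1.25 log2 units, SE 0.25, adjusted p = 0.00024). That call was lost when only the 0 h groups were fitted (adjusted p = 0.056).

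**Figure D4:**
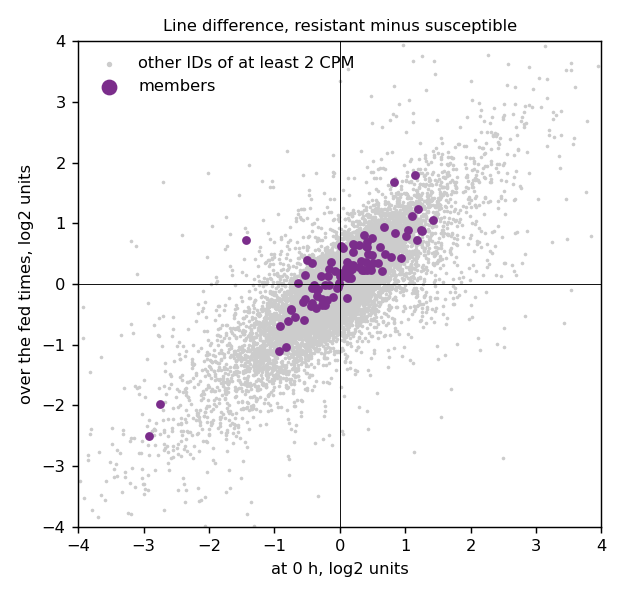
Each point is 1 ID, placed by its difference between lines (resistant minus susceptible, fitted log2 units) at 0 h (x axis) and over the fed times (y axis), with the members in purple and other IDs with at least 2 CPM in each line in grey. Points beyond 4 units are not shown, among them 2 members that were at or near 0 CPM at 0 h in the resistant line (Sme2.5_24471.1_g00001 and Sme2.5_00506.1_g00009). The members' median is 0.10 at 0 h and 0.22 over the fed times, beside 0.03 and 0.02 for IDs with at least 2 CPM in each line.

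Whether the higher level moved during feeding was described by setting 24 and 48 h against 4, 8 and 12 h. The rule allows differences among the fed times only if they leave 0 h set apart by the largest step. This limits the counts in advance. The counts and p-values, here and below, are therefore a description and are not read against the shares. In the resistant line 4 members were higher late (11.6% of all tested) and 6 lower (10.7%), and in the susceptible line 4 were higher (12.2%) and 7 lower (12.8%), by edgeR at an adjusted p under 0.05. Median differences were -0.03 and 0.01 log2 units. No member was called in both lines, in the same or in opposite directions. Of all tested IDs, 5.76% were higher late in both lines and 5.38% lower in both. At an unadjusted p under 0.05, 1 member was lower late in both lines and none was higher in both.

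As no member was called in both lines, those named here were chosen after their values were seen. In the resistant line Sme2.5_02096.1_g00003 fell from a lowest, median and highest value of 40.2, 48.6 and 69.0 CPM at 4 to 12 h to 25.2, 32.9 and 35.3 at 24 and 48 h (-0.71 log2 units, SE 0.13, adjusted p = 0.00019), without overlap. All its late libraries were still above 0 h, where it had 13.1, 14.0 and 14.8 CPM. Sme2.5_03788.1_g00004 moved the other way, from 19.5, 38.3 and 57.6 to 23.6, 64.9 and 112 CPM, with overlap (0.64, SE 0.20, adjusted p = 0.017). That call was lost without replicate 3 at 24 h (adjusted p = 0.12) and without replicate 2 at 48 h (adjusted p = 0.089). The other 3 called higher late were Sme2.5_00558.1_g00015, Sme2.5_00417.1_g00023 and Sme2.5_00294.1_g00006.

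In the susceptible line Sme2.5_04775.1_g00004 fell from 70.8, 114 and 218 CPM at 4 to 12 h to 45.9, 72.9 and 88.5 at 24 and 48 h (-0.84 log2 units, SE 0.19, adjusted p = 0.0015), with overlap. Sme2.5_16496.1_g00001 went from 21.7, 26.7 and 39.1 to 34.0, 40.7 and 53.5 CPM (0.66, SE 0.15, adjusted p = 0.0013). Sme2.5_11091.1_g00001, Sme2.5_07198.1_g00001 and Sme2.5_05838.1_g00005 were the other 3 called higher late. At 24 h alone against 4 to 12 h, an alternative added after seeing the data, no member was called higher in the resistant line (7.85% of all tested, with 3 members at an unadjusted p under 0.05) and 6 were lower (5.76%). Sme2.5_16496.1_g00001 alone was called higher in the susceptible line (10.5%) and 6 were lower (9.47%).

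The counts of late calls depend on the scaling. By limma on the deposited FPKM without rescaling, 38 of 75 members were called in the resistant and 23 of 75 in the susceptible line, all lower late. In the same fits 34.7% and 29.9% of all IDs were lower late and 5.86% and 6.49% higher. On FPKM rescaled by TMM, 8 and 10 members were called, with 4 and 4 of them higher, beside 23% and 27.9% of all IDs called in either direction.

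Any difference among the 5 fed times was called for 25 members in the resistant line (36.5% of all tested), for 11 in the susceptible line (30.4%) and for 6 in both (18.3%), by edgeR's F-test at an adjusted p under 0.05. The rule kept only IDs with no step among the fed means as large as the step to 0 h, so these counts are a description and are not read against the shares. Fits of only the fed groups of each line called 9 members in the resistant line (26.6% of the IDs tested in it) and 18 in the susceptible line (35.8%). Among the 6, Sme2.5_04775.1_g00004 and Sme2.5_02096.1_g00003 were highest at 12 h in both lines. At 12 h the second had 60.8 ± 10.8 CPM (SD, n = 3) over resistant libraries, where its other fed means were 28.3 ± 4.47 to 47.1 ± 9.29. It had 80.6 ± 13.8 CPM at 12 h in the susceptible line, where the others were 47.7 ± 3.05 to 52.8 ± 11.6.

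**Figure D5:**
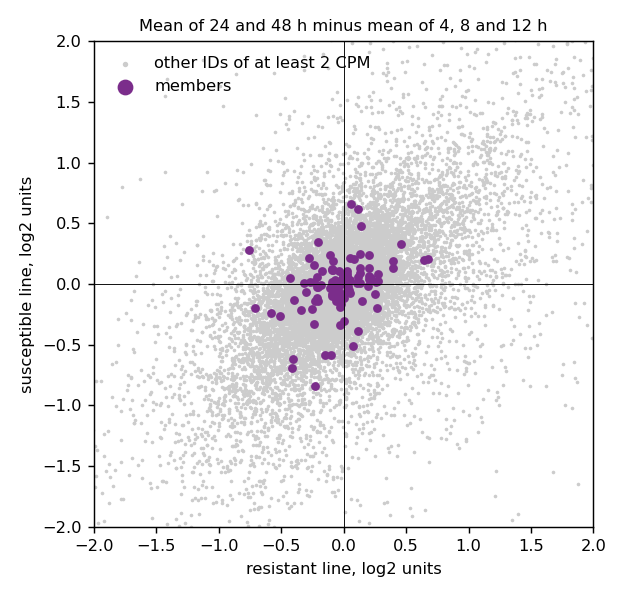
Each point is 1 ID, placed by its mean at 24 and 48 h minus its mean at 4, 8 and 12 h (fitted log2 units) in the resistant line (x axis) and the susceptible line (y axis), with the 101 members in purple and other IDs with at least 2 CPM in each line in grey; points beyond 2 units are not shown. The members lie around 0, with medians of -0.03 and 0.01, and within 1 unit of it in both lines.

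The members lay on 98 scaffolds, judged by the scaffold part of the IDs, and 95 of them were alone on theirs. The only pair with neighbouring gene numbers was Sme2.5_04775.1_g00003 and Sme2.5_04775.1_g00004. Before feeding the first had 37.1 ± 11.2 CPM (SD, n = 3) in resistant leaves, and its fed means were 38.5 ± 1.47 to 45.4 ± 5.64. Its susceptible means were 24.1 ± 2.86 before feeding and 28.9 ± 2.93 to 38.4 ± 4.39 afterwards. It therefore lacked the 12 h peak of its neighbour and was near the bottom of the ranking, at 99 of 101. Of 65 neighbouring IDs with at least 2 CPM that are not members, 7 (10.8%) had every fed mean above 0 h in both lines, beside 5.80% of other IDs.

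Within groups, the members also tended to deviate together. After each group's mean was taken out of log2(CPM + 1), the correlation over the 36 libraries had a median of 0.14 over the 5050 pairs of members, with 68.6% of pairs positive. Over all pairs of IDs with at least 2 CPM the median was 0.0005 and 50.1% were positive. Pairs share libraries, depth and scaling, and the members were chosen on these libraries, so this is a description.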

How the data were processed

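Leaf RNA was sequenced in 36 libraries, 3 for each of 12 groups (2 lines, 6 times). The authors deposited a table of estimated counts as whole numbers and a table of FPKM values. Per the submitters' processing notes FastQC and HTSeq 0.6.1 were used. The aligner, the genome build, the use of strand and the tool behind either table are not given in the sources used here, and overlapping or near-identical genes could share reads. The table has 89388 rows, of which 3945 without an ID held 4.46 to 7.28% of a library's counts and were left out of all totals and fits. Where FPKM allowed the value before rounding to be recovered, a deposited 1 stood for a median of 0.281 and a deposited 2 for 1.54, so the counts were read as rounded estimates. The FPKM table holds the first 65535 rows. P-values measure the spread between libraries.

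The members and lists were chosen with earlier results of these data known. Only 101 IDs met the rule, so its limit of 200 removed none, and the IDs just inside and outside were taken by the margin between the step at 0 h and the next step. Estimated counts were tested by quasi-likelihood F-test (edgeR 4.0.16, R 4.3.3), over all 36 libraries with 1 mean per group, TMM scaling, filterByExpr and Benjamini-Hochberg adjustment over 23719 IDs at 0.05. Standard errors come from the F statistic. IDs were named by size per comparison: the 2 with the widest step, the 2 most abundant, adjacent members, and up to 2 higher and 2 lower past the threshold with at least 5 CPM and no overlap; exceptions are stated. Alternatives were DESeq2 1.42.0 and its size factors, no low-count filter, fits of only the groups compared, limma 3.58.1 for log2(FPKM + 1), a replicate block, other pseudocounts (0.5, 5) and minimum CPM (5) for the rule, and each library left out. FPKM rescaled by TMM and 24 h alone were added after seeing the data. Fits were tested on simulated data.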

Additional observations from a re-analysis of the deposited data

Results flagged for a closer look

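The change of Sme2.5_00077.1_g00001 from 0 h to the mean of the fed times differed between the lines by 2.17 log2 units (SE 0.44) in edgeR's quasi-likelihood test of the interaction (adjusted p = 0.019 over 23719 IDs). The rule that chose this ID used its changes from 0 h in both lines, so the value and its p are a description and support nothing. It was larger in the resistant line, from 2.73 ± 0.807 CPM (SD, n = 3) at 0 h to between 7.39 ± 2.19 and 30.1 ± 4.10 at the fed times. In the susceptible line it went from 7.25 ± 2.86 CPM to between 7.68 ± 0.954 and 9.99 ± 1.84. The difference was 1.94 to 2.46 over the fits without each library in turn. The call was lost without resistant replicate 1 at 0 h (adjusted p = 0.12), resistant replicate 3 at 0 h (0.065), susceptible replicate 1 at 0 h (0.059) and susceptible replicate 2 at 0 h (0.087). Susceptible replicate 3 at 0 h, at 3.99 CPM, was below the other 2, at 8.39 and 9.36.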

How the results depend on the processing

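The count of members that differed between lines over the fed times held under every alternative run. It was 72 in the main fit and 68 to 73 without each library in turn. By limma it was 54 and 55 of the 75 members with an FPKM. Of all tested IDs, 67.3% were called in the main fit. By limma 67.9% were called on FPKM as deposited and 68.5% on FPKM rescaled by TMM. The count is thus not read as a trait of the members. Fits of only the groups compared gave 20 members for the line difference at 0 h (35 in the main fit), 9 and 18 for any difference among the fed times in the resistant and susceptible line (25 and 11) and 266 calls against 0 h over the 10 comparisons (494), with fewer libraries behind the spread. By limma on log2(FPKM + 1), 38 and 23 of the 75 members with an FPKM were called late against early in the resistant and susceptible line. In the main fit it was 10 and 11 of 101. For any difference in the susceptible line limma called 24 of the 75, beside 43.7% of all IDs it tested. On FPKM rescaled by TMM the counts were 8, 10 and 12 of the 75, the last beside 36% of all IDs tested. As above, these counts are not read against the shares. At 24 h alone the late counts were 6 and 7. The rule was met by 58 IDs on deposited FPKM and 64 on rescaled FPKM, which hold fewer IDs, with 34 and 53 of the 75 members kept. With DESeq2 size factors 102 met it, 93 of them members. Causes other than these were not tested.

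Without each library in turn, 84 to 136 IDs met the rule. Without susceptible replicate 3 at 0 h, 84 IDs met it and 69 members were kept; without susceptible replicate 2 at 0 h, 136 met it and 92 were kept. Only 26 members were kept without each of the 36 libraries. The ranges were 28 to 36 for the line difference at 0 h, 8 to 12 and 9 to 12 for late against early, 17 to 28 and 8 to 16 for any difference among fed times in the resistant and susceptible line, 416 to 500 for calls against 0 h, and 0 to 1 for the interaction. For the susceptible late members Sme2.5_16496.1_g00001 and Sme2.5_11091.1_g00001 and the resistant Sme2.5_00558.1_g00015 and Sme2.5_03788.1_g00004, the calls were lost on unscaled FPKM (adjusted p = 0.060, 0.11, 0.66 and 0.24). Of 726 values over 17 results for single IDs, none reversed and 14 lost their call. No fit of only the groups compared exists for the interaction, which uses all 12.

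A replicate block gave 72 members for the line difference over the fed times (67.6% of all tested) and 34 at 0 h (34.8%). It gave 10 and 11 late against early (22.6% and 25.3%) and 25 and 13 for any difference (37% and 30.5%). Calls against 0 h numbered 492, where 3.39% to 11.7% of all tested IDs were called higher per comparison. The interaction was called for 1 member (0.287%). No count moved by over 1.5 times. Whether the numbers pair the libraries was not settled. Deviations of same-numbered libraries of a line correlated at -0.37 to 0.47, with a median of 0.0046 (25 of 90 pairs over 0.1). Those of different lines at one time correlated at -0.23 to 0.27, with a median of 0.036 (2 of 18). Of the 36 libraries, 12 correlated best with their own number, where each group has 3 numbers. Some members had 0 h means that rest on libraries at or near 0 CPM, with counts rounded by the authors' processing. In the resistant line Sme2.5_24471.1_g00001 had 0, 0 and 0 CPM at 0 h, and Sme2.5_00506.1_g00009 had 0.876, 0 and 0. Whether depth had a part in these zeros was not tested.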

Other observations

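Rows without an ID were put through the same rule. Of 1148 such rows with at least 2 CPM in each line, 8 met it (0.697%), beside 0.675% of the rows with an ID. They cannot be matched to genes and entered no comparison.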
